A study of Homo sapiens with 6 samples.

Results

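Synaptic vesicle and exocytosis genes are the presynaptic genes that load, dock, prime, fuse and recover neurotransmitter vesicles, and 57 of them were chosen by name from a list of vesicle proteins, SNARE machinery, synaptotagmins, Rab proteins, active zone proteins, neurexins and endocytic proteins. Of the 57 genes, 49 were measured among the 13885 genes of the authors' deposited table. The other 8 (SYN3, SV2B, SYT13, PPFIA2, ERC2, CADPS2, NRXN3 and AMPH) were not analysed here. The cells were BE(2)-C, an established human neuroblastoma line, labelled wild type. In the first group, 3 samples had been transfected for 24 h with 1 siRNA against PCIF1 (siPCIF1), and in the second, 3 samples had received a scrambled siRNA (siScramble). All 6 samples were then kept for 4 days in 10 µM all-trans retinoic acid (ATRA), renewed daily, which drives neuroblastoma cells towards a neuron-like form, so there is no group without ATRA. The enzyme PCIF1 methylates adenosine where it is the first transcribed base of an mRNA, next to the cap, and the product is m6Am.

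In a nerve terminal, vesicles are held in a cluster by synapsins, brought to the membrane by Rab3 and Rab27 with their effectors, and primed at the active zone by UNC13 and RIM proteins. Fusion is carried out by the SNARE proteins SNAP25, syntaxin 1 and VAMP2, is triggered by calcium through synaptotagmins, and is followed by endocytosis through dynamin, amphiphysins and synaptojanin. Neuroblastoma cells derive from the sympathetic lineage, in which much of the same machinery also releases catecholamine granules.

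Every value below is the authors' DESeq2 comparison of the groups, given as a log2 fold change of siPCIF1 over siScramble with its standard error (SE), and intervals are 95% intervals from that SE. A gene is called higher or lower where its adjusted p was under 0.05. Values per sample were not analysed here, so no spread of single samples can be shown, and the labels do not say whether the 3 samples of a group were separate cultures, so the p-values measure the spread between these samples, which may be technical. PCIF1 was at -0.82 (SE 0.19) per the authors' deposited table, or 56.6% of the siScramble level (interval 43.7 to 73.4%), with a DESeq2 adjusted p of 0.000167. The direction of all fold changes was taken from this sign, since no header gives it and the table's name puts the scrambled control first. With the opposite reading every "higher" and "lower" below would trade places, and PCIF1 itself is for that reason no check of the knockdown. The neuroblastoma markers were present: 15 of 15 adrenergic markers were measured, among them PHOX2A, HAND2, DBH and TH, with 6 higher and 2 lower by DESeq2, per the authors' deposited table. Of other cell types, 3 of 7 Schwann and glial, 5 of 7 fibroblast and 2 of 9 immune, epithelial and endothelial markers were measured, and S100B was the one that rose and PDGFRB the one that fell, at 1.21 (SE 0.22) and -0.94 (SE 0.16) per the authors' deposited table. Their part in the results was not tested, and in bulk RNA fewer cells of a type and less RNA per cell cannot be told apart.

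Since m6Am forms where the first transcribed base is A, the bases around the start are shown for 11 called members with a RefSeq entry: the Rab3 and Rab27 genes and rabphilin, SYT1 and SYT11, SYNJ1 and BIN1, and both NSF attachment proteins. The sequences are from RefSeq on GRCh38.p14, 20 bases before the start and 10 from it on, on the strand of the gene, and the capital marks the first transcribed base as annotated. Where RefSeq lists several starts (RAB27B, RPH3A, SYNJ1), the one nearest the start of the main GENCODE transcript is shown.
RAB27B (chr18:54828457-54828486, plus strand): gtggtgccaccagccctgccActcgcagtc
RAB3C (chr5:58583055-58583084, plus strand): cgccaggagaggacagctccAgtgctgatg
RAB3A (chr19:18204033-18204062, minus strand): gaggctccgcccctccctttGcaggacgtc
RPH3A (chr12:112791728-112791757, plus strand): ccgccccgcttcccttgctcAcacagggct
RAB3D (chr19:11339648-11339677, minus strand): gggaacggcccttcctccgcCttctgggcg
SYT1 (chr12:78864754-78864783, plus strand): ctagaccgagtactgcccccAgtgtctttc
SYT11 (chr1:155859547-155859576, plus strand): tgcacctgcatccttagctcAgcgcatccc
SYNJ1 (chr21:32728004-32728033, minus strand): agagatgggcctgctggagcGgaagtgacg
BIN1 (chr2:127107145-127107174, minus strand): ggcccctcccctctccctccCtctgtcccc
NAPB (chr20:23421479-23421508, minus strand): cgcgtcgcgcctgcgcctgcGtccctgcgg
NAPA (chr19:47515054-47515083, minus strand): ggttcctggccgcaagcgacGcgcgccggt

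An annotated A start stood on both sides of the comparison. It was present in RAB27B, RAB3C, RPH3A and SYT1, which rose, and in SYT11, which fell, whereas RAB3A and SYNJ1, which also rose, are annotated with a G. Among called members not shown, SYN2, which rose, and SYP, STX1A and DNM1, which fell, also have an A. The starts shown for SYT1, BIN1, NAPA, RPH3A and RAB27B lie 105, 134, 177, 189 and 278 bases from that of the main GENCODE transcript. The main GENCODE transcript begins with C in SYT1 and with G in RPH3A, SYN2, STX1A and DNM1, and with T in RAB3A. A RefSeq start was found for 41 of the 49 measured members, and 25 of them (61.0%) begin with A, against 45.5% of 9836 genes of the table. Among these, A was the first base of 5 of 10 members that rose, of 4 of 9 that fell and of 16 of 22 that were not called. The median log2 fold change per the authors' deposited table was 0.06 for the 25 members with A and 0.05 for the 16 with another base. Over all genes of the authors' deposited table the medians were 0.02 for 4472 genes with A and -0.02 for 5364 with another base. Annotated starts need not be those used in these cells: in GENCODE 29 the main transcripts of 17 of the 49 members begin with A. That is 34.7%, against 29.9% of all genes, with 3 of 11 members that rose and 3 of 12 that fell.

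The synaptic vesicle and exocytosis genes changed in both directions. By DESeq2, 23 of 49 measured members passed per the authors' deposited table, or 46.9%, against 34.0% of all genes. Of these, 11 rose (22.4%, against 16.3% of all genes) and 12 fell (24.5%, against 17.7%). With a trend along base composition, length and level removed over all genes, 10 were higher and 5 lower. With the Wald statistics scaled to their own robust SD over all genes, 0 of 49 members passed, against 0.972% of all genes. An unadjusted p under 0.05 was then reached by 4 of 49 members and by 1074 of 13885 genes. PCIF1 was then also short of the threshold (adjusted p = 0.744 from the DESeq2 statistic). Calls were more frequent at higher counts: among genes with a mean normalised count of at least 100, 22 of 39 members (56.4%) and 40.3% of all genes passed per the authors' deposited table. The median over the 49 members was -0.039 per the authors' deposited table, against 0.0059 over all genes. The changes were modest, with a median size of 0.55 among called members of the authors' deposited table, against 0.66 among all called genes, and 1 member, RAB27B, exceeded 1 on the log2 scale.

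**Figure D1:**
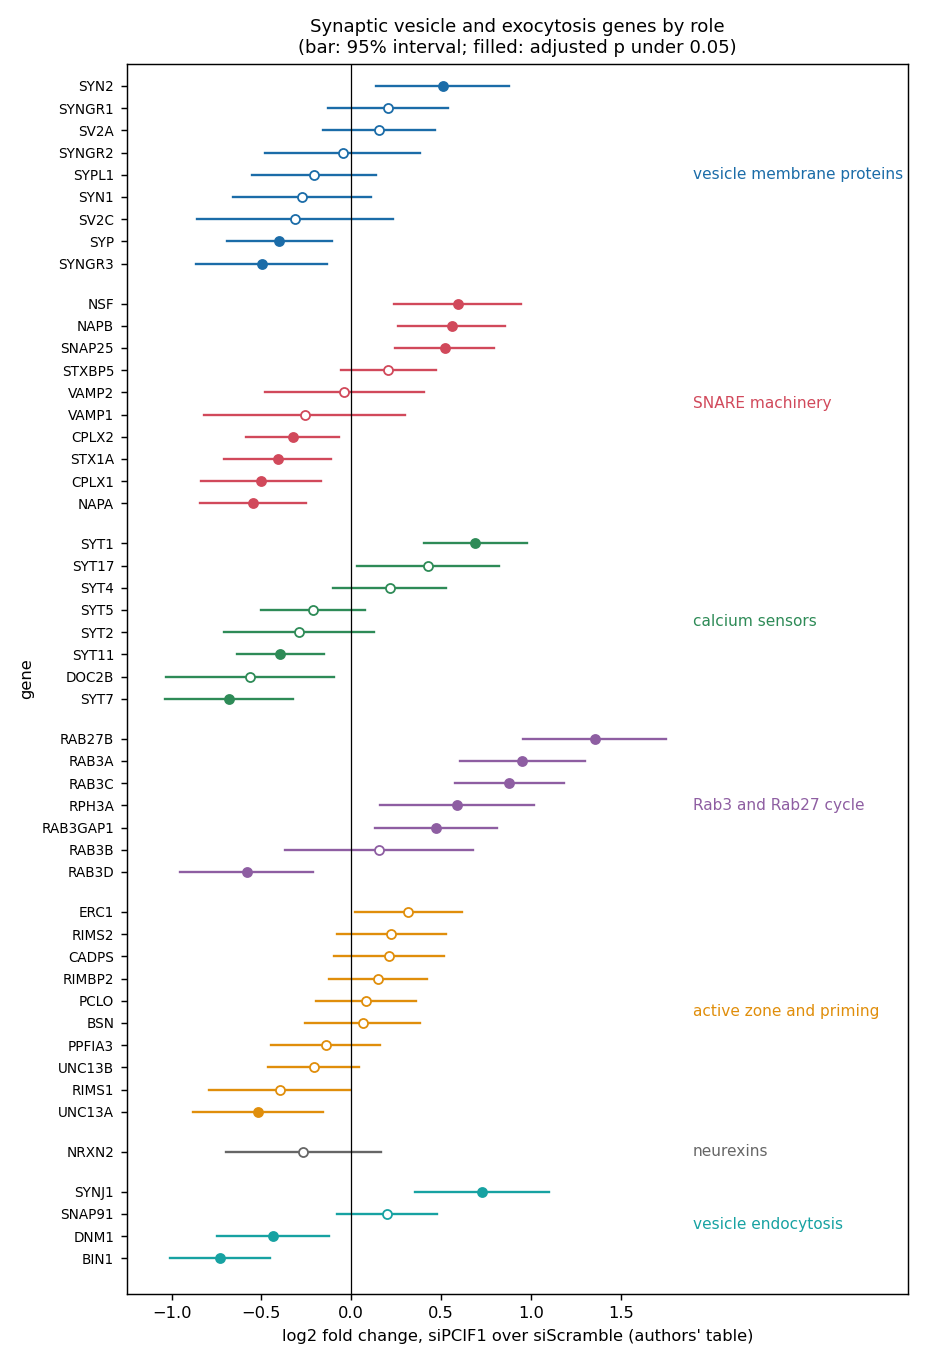
Log2 fold change (siPCIF1 over siScramble, horizontal axis) of the 49 measured members, grouped by role and ordered by value within each; bars are 95% intervals from the authors' SE and filled points have an adjusted p under 0.05. Of the 7 Rab3 and Rab27 genes 5 lie above 0 and pass, 7 of 10 SNARE genes pass on both sides of 0, and 9 of 10 active zone and priming genes do not pass. Of all genes 34.0% pass.

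Expression per length of the main transcript set the common members apart from the rare ones. SYP, which encodes the vesicle membrane protein synaptophysin, had 1166 mean normalised counts per kilobase over all 6 samples per the authors' deposited table. SYT11, CPLX2, SYT1 and SYT4 followed with 967, 688, 399 and 311 mean normalised counts per kilobase, from the authors' deposited table. At the low end, SV2C and RAB3B had 1.97 and 2.07 mean normalised counts per kilobase, from the authors' deposited table, with SEs of 0.28 and 0.27. Called members were found from 69.8 (RPH3A) to 5067 (SYT11) mean normalised counts, as the plot of level against change shows.

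**Figure D2:**
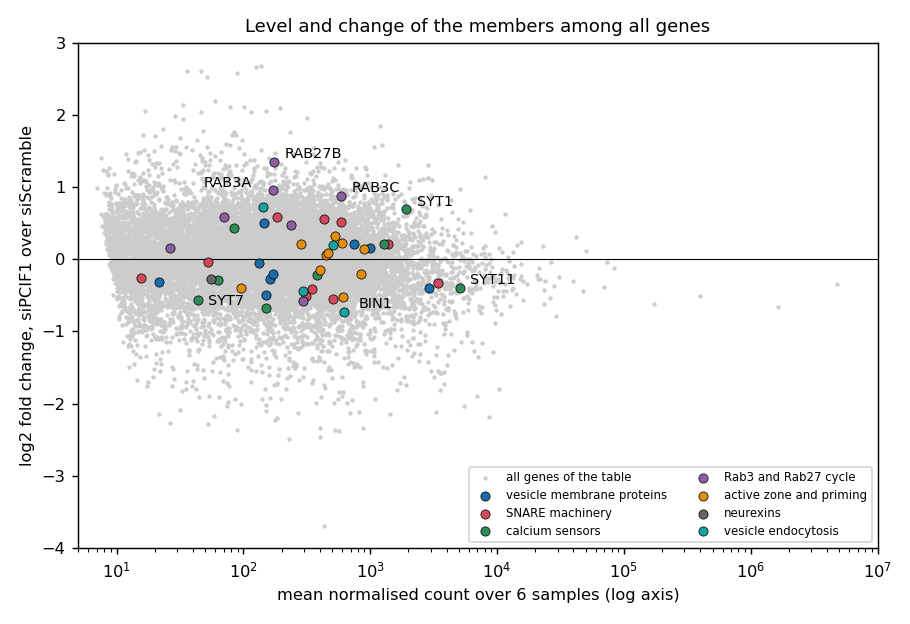
Mean normalised count over the 6 samples (log axis) against the log2 fold change, siPCIF1 over siScramble, for all 13885 genes (grey) and the 49 members (coloured by role). The members lie between 15.5 and 5067 mean normalised counts and between -0.73 and 1.35 on the log2 scale, inside the cloud of all genes.

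Among the vesicle proteins, 1 of 9 measured genes rose and 2 fell (33.3%, against 34.0% of all genes), per the authors' deposited table. The median there was -0.21. With the trend along base composition, length and level removed, 2 were higher (SYN2 and SYNGR1) and 0 lower, with a median of -0.047. The synapsin gene SYN2, whose product ties vesicles to each other and to actin, rose by 0.51 (SE 0.19; DESeq2 adjusted p = 0.0260) per the authors' deposited table. Its neighbour in the family, SYN1, was at -0.27 (SE 0.20) per the authors' deposited table, short of the threshold, and the interval of SYN2 (0.14 to 0.88) lay above that of SYN1 (-0.66 to 0.11). Differences between members were not tested, here or below, and the intervals are set side by side as a description. SYP was lower, at -0.40 (SE 0.15; DESeq2 adjusted p = 0.0248), and so was the synaptogyrin gene SYNGR3, at -0.50 (SE 0.19; DESeq2 adjusted p = 0.0259), both per the authors' deposited table. The remaining genes did not pass, from SV2C at -0.31 (SE 0.28) to SYNGR1 at 0.21 (SE 0.17) per the authors' deposited table, with SV2A, the main SV2 vesicle glycoprotein by count per kilobase here, at 0.15 (SE 0.16).

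In the SNARE machinery, calls were made in both directions, but those on the lower side did not outlast removal of the trend. By DESeq2, 7 of 10 genes passed per the authors' deposited table (70.0%, against 34.0% of all genes), 3 higher and 4 lower. Over all genes 16.3% were higher and 17.7% lower. The median of the SNARE genes was -0.15. With the trend along base composition, length and level removed, 2 passed as higher (SNAP25 and NAPB) and 0 as lower. Over all genes 12.3% then passed as higher and 12.9% as lower, or 25.3% in either direction. SNAP25, the plasma membrane SNARE that contributes a pair of helices to the fusion complex, rose by 0.52 (SE 0.14; DESeq2 adjusted p = 0.00156) per the authors' deposited table. STX1A, the syntaxin with which SNAP25 pairs, was lower at -0.41 (SE 0.15; DESeq2 adjusted p = 0.0238) per the authors' deposited table. VAMP2, the vesicle SNARE, was at -0.039 (SE 0.23) and VAMP1 at -0.26 (SE 0.29) per the authors' deposited table, and neither passed. The complexins, which bind the assembled SNARE complex and hold it before fusion, both fell: CPLX1 was at -0.50 (SE 0.17; DESeq2 adjusted p = 0.0130) and CPLX2, the more abundant per length, at -0.33 (SE 0.13; DESeq2 adjusted p = 0.0421) per the authors' deposited table.

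Of the genes that take SNARE complexes apart after fusion, NSF and NAPB rose and NAPA fell. NSF, the ATPase of this step, rose by 0.59 (SE 0.18; DESeq2 adjusted p = 0.00545) per the authors' deposited table. NAPB, which encodes the brain form of its adaptor (beta-SNAP), rose by 0.56 (SE 0.15; DESeq2 adjusted p = 0.00145), with an interval of 0.26 to 0.85 per the authors' deposited table. NAPA, which encodes the widely expressed alpha-SNAP, fell by 0.55 (SE 0.15; DESeq2 adjusted p = 0.00179), with an interval of -0.84 to -0.25 per the authors' deposited table. With the trend removed, NAPB still passed at 0.41, while NSF at 0.44 (adjusted p = 0.0576 from the DESeq2 values) and NAPA at -0.27 (adjusted p = 0.183) did not. STXBP5, which encodes tomosyn, an inhibitor of SNARE assembly, was at 0.21 (SE 0.14) per the authors' deposited table, short of the threshold. NSF has a copy annotated as a pseudogene, NSFP1, so its count may be affected by how reads shared with that copy were treated, and the same holds for DNM1 and SYPL1, which also have copies named as pseudogenes.

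Among the synaptotagmins and DOC2B, SYT1 rose and SYT7 and SYT11 fell, or 37.5% of the 8 measured genes, against 34.0% of all genes. The median over the 8 was -0.25 per the authors' deposited table. SYT1 (chr12:78863993-79452008), the calcium sensor of fast synchronous release, was at 0.69 (SE 0.15; DESeq2 adjusted p = 3.18e-05), or 161% of the siScramble level, per the authors' deposited table. SYT7 (chr11:61515313-61581148), a sensor of high calcium affinity tied to slower release and vesicle refilling, was at -0.68 (SE 0.18; DESeq2 adjusted p = 0.00109), or 62.4% of the siScramble level, per the authors' deposited table. SYT11, a synaptotagmin that does not act as a calcium sensor for fusion, was at -0.39 (SE 0.12; DESeq2 adjusted p = 0.00638) per the authors' deposited table. Its relative SYT4, which also lacks that role, was at 0.21 (SE 0.16) per the authors' deposited table, short of the threshold. The remaining members ranged from DOC2B, a calcium-binding protein linked to spontaneous release, at -0.56 (SE 0.24; DESeq2 adjusted p = 0.0531) to SYT17 at 0.43 (SE 0.20; DESeq2 adjusted p = 0.0898) per the authors' deposited table.

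The 3 largest increases among the 49 members were in Rab3 and Rab27 genes. By DESeq2, 5 of 7 rose and 1 fell per the authors' deposited table, where 16.3% of all genes rose and 17.7% fell. The median was 0.59, against 0.0059 over all genes. RAB27B (ENSG00000041353.9; chr18:54717860-54895516), a GTPase that docks secretory granules and vesicles, was at 1.35 (SE 0.20; interval 0.96 to 1.75) per the authors' deposited table, and its DESeq2 adjusted p was 1.27e-09. That is 2.56 times the siScramble level by the authors' deposited table, and RAB27B stood at the 99.5th percentile of all log2 fold changes. RAB3A (ENSG00000105649.9; chr19:18196784-18204074), the main Rab of synaptic vesicles in brain, was at 0.95 (SE 0.18; DESeq2 adjusted p = 1.48e-06), and RAB3C (ENSG00000152932.7; chr5:58582221-58859394) at 0.88 (SE 0.16; DESeq2 adjusted p = 3.33e-07) per the authors' deposited table.

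With the trend along base composition, length and level removed, RAB3C was at 0.58 and still passed, behind RAB3A, RAB27B, RPH3A and SYN2. Regulators and effectors of these GTPases did not share a direction: RPH3A and RAB3GAP1 rose, whereas the exchange factor RAB3IL1 fell. RAB3IL1 is 1 of 7 further measured genes of the Rab3 and Rab27 cycle, which include the GTPase RAB27A and of which 0 were called higher. At an unadjusted p under 0.05 by DESeq2, 2 of the 7 were higher (MADD and RAB3GAP2) and 2 lower (RAB3IP and RAB3IL1). RPH3A, which encodes rabphilin, an effector that binds Rab3 and Rab27 in their active form, rose by 0.59 (SE 0.22; DESeq2 adjusted p = 0.0259) per the authors' deposited table. RAB3GAP1, the catalytic subunit of the Rab3 GTPase-activating complex, rose by 0.47 (SE 0.17; DESeq2 adjusted p = 0.0226) per the authors' deposited table, a call that was lost with the trend removed (0.30, adjusted p = 0.206). RAB3D was the exception: this Rab3 form, best known from granules of exocrine cells, was at -0.58 (SE 0.19; DESeq2 adjusted p = 0.00941) per the authors' deposited table, and its interval of -0.95 to -0.21 lay below those of RAB3A and RAB3C. RAB3B, at 26.6 mean normalised counts, was at 0.16 (SE 0.27) per the authors' deposited table, short of the threshold. Per kilobase, RAB3A had 111, RAB3D 69.2 and RAB3C 65.6 mean normalised counts per the authors' deposited table.

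Few active zone genes passed. By DESeq2, 1 of 10 measured active zone and priming genes was called per the authors' deposited table, 10.0% against 34.0% of all genes. An unadjusted p under 0.05 by DESeq2 was reached by 3 of 10, against 5990 of 13865 genes counted once per symbol. UNC13A, which encodes the priming factor Munc13-1, was the gene that fell, at -0.52 (SE 0.18; DESeq2 adjusted p = 0.0189) per the authors' deposited table, and its relative UNC13B was at -0.21 (SE 0.13) there and did not pass. The scaffold genes BSN (bassoon) and PCLO (piccolo) were at 0.06 (SE 0.16) and 0.08 (SE 0.14) per the authors' deposited table, with intervals of -0.26 to 0.38 and -0.20 to 0.36. A p that misses the threshold does not show that the genes were alike in both groups. The RIM genes RIMS1 and RIMS2, whose products tether vesicles and calcium channels, were at -0.40 (SE 0.20; DESeq2 adjusted p = 0.110) and 0.22 (SE 0.16) per the authors' deposited table. ERC1 at 0.32 (SE 0.15), CADPS, the granule priming factor CAPS1, at 0.21 (SE 0.16), RIMBP2 at 0.15 (SE 0.14) and PPFIA3, a liprin, at -0.14 (SE 0.15) did not pass per the authors' deposited table either. The one measured member neurexin, the adhesion receptor NRXN2, was at -0.27 (SE 0.22) per the authors' deposited table with 55.9 mean normalised counts, and did not pass.

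Endocytic genes again moved both ways, with 75.0% of 4 measured members called, against 34.0% of all genes. SYNJ1, the lipid phosphatase synaptojanin that uncoats endocytosed vesicles, rose by 0.73 (SE 0.19; DESeq2 adjusted p = 0.000911) per the authors' deposited table. BIN1 (ENSG00000136717.14; chr2:127048027-127107355), a membrane-bending amphiphysin with neuronal and non-neuronal isoforms, had the largest decrease of the 49 members as deposited, at -0.73 (SE 0.14; interval -1.01 to -0.46), with a DESeq2 adjusted p of 3.51e-06 per the authors' deposited table. With the trend removed BIN1 still passed but was at -0.41 (adjusted p = 0.0175 from the DESeq2 values), and the largest decrease among members that passed was that of SYT7, at -0.54. DNM1, the neuronal dynamin that pinches vesicles off, was lower at -0.44 (SE 0.16; DESeq2 adjusted p = 0.0214) per the authors' deposited table, and at -0.23 (adjusted p = 0.297), short of the threshold, with the trend removed. SNAP91, the clathrin adaptor AP180, was at 0.20 (SE 0.14) per the authors' deposited table, short of the threshold.

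Members that rose and members that fell differed in the base composition of their transcripts, and so did genes at large. The main transcripts of the 11 members that rose had a median GC content of 43.2%, against 59.4% for the 12 that fell, 51.5% for those not called and 48.8% for all genes. Of 18 members with a GC content below the median of all genes, 8 rose and 1, SYT11, fell by DESeq2, per the authors' deposited table. Of the 31 at or above it, 3 rose (SYN2, RAB3A and RPH3A) and 11 fell. Over all genes of the authors' deposited table the same split gave 1810 higher and 643 lower below the median, and 451 higher and 1808 lower at or above it. Gene length also differed, with a median of 167 kb for members that rose and 34.4 kb for those that fell. It was 108.7 kb for members not called and 28.97 kb for all genes, so members that fell were not short beside genes at large. In the linear trend over all genes, the log2 change per SD was -0.173 for GC content and 0.016 for log10 gene length. Length thus added little beside GC content there. Across the 49 members values of log2 fold change from the authors' deposited table had a Pearson r of -0.56 (Spearman's rho -0.57) with GC content and of 0.32 (rho 0.39) with log10 gene length, and across 13877 genes of the authors' deposited table r was -0.38 and 0.19. These correlations are across genes, which share libraries and are not independent replicates, and they are given as descriptions.

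**Figure D3:**
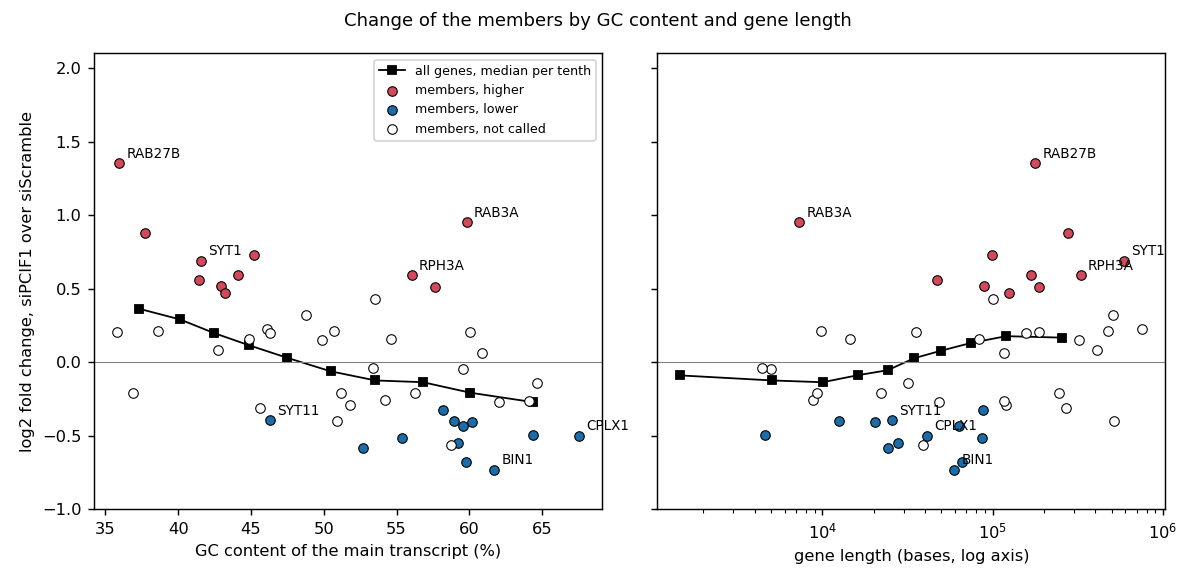
Log2 fold change, siPCIF1 over siScramble, against the GC content of the main transcript (left, percent) and the gene length (right, bases, log axis) for members that rose (red), fell (blue) or were not called (white), with the median of all genes in bins of equal size (black squares). Members that rose sit mostly at low GC content and great length; RAB3A, with 59.8% GC in 7.29 kb, is an exception on both axes.

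With the linear trend of the log2 fold change with GC content, gene length, transcript length and mean count removed over all genes, 10 members passed as higher and 5 as lower, against 12.3% and 12.9% of all genes (25.3% in either direction). Of the 23 called members, 14 kept their call and direction. They were SYN2, SNAP25, NAPB, SYT1, RAB3A, RAB3C, RAB27B, RPH3A and SYNJ1 on the higher side and SYT7, SYT11, RAB3D, UNC13A and BIN1 on the lower. The call was lost for 7 of the 12 that fell (SYP, SYNGR3, STX1A, NAPA, CPLX1, CPLX2 and DNM1) and for 2 of the 11 that rose (NSF and RAB3GAP1). The complexins and SYP then lay near 0, with CPLX1 at -0.10, CPLX2 at -0.08 and SYP at -0.07, with adjusted p of 0.723, 0.718 and 0.787 from the DESeq2 values. RAB3A became the largest value of the group, at 1.22 with an adjusted p of 3.02e-10 from the DESeq2 values, ahead of RAB27B at 0.98. SYNGR1, at 0.44, passed only with the trend removed. The cause of the trend was not tested.

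**Figure D4:**
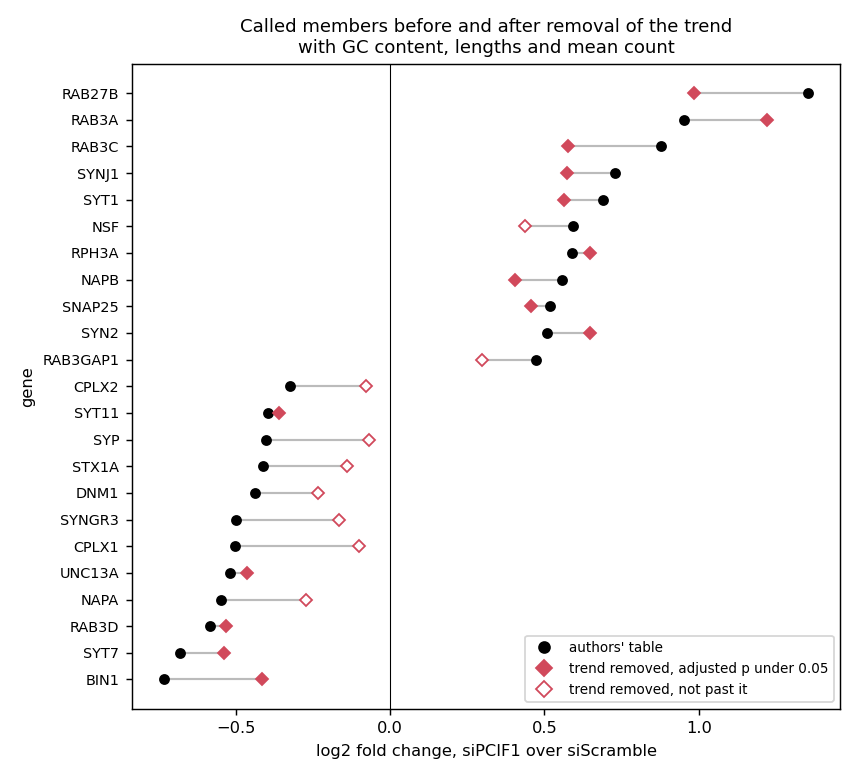
Log2 fold change, siPCIF1 over siScramble, of the 23 called members in the authors' table (black circles) and after the trend with GC content, lengths and mean count was removed (red diamonds, filled where the adjusted p was under 0.05). All lower members and most higher ones move towards 0, while RAB3A, RPH3A and SYN2 move away from it.

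Overlap with other genes touched 11 of the 23 called members, 10 of them through exons on the opposite strand. In 3 of the 23 (NAPA, SYT7 and RAB3D) exons overlap on the same strand, where the strand of a read cannot part the genes. The libraries were made with a stranded kit, and whether counting used the strand is not given in any source used here. RAB3A shares exonic bases with MPV17L2 on the opposite strand, which fell by 1.38 (SE 0.16) per the authors' deposited table at 345 mean normalised counts, against the direction of RAB3A. STX1A overlaps BUD23, at 0.23 (SE 0.16), DNM1 overlaps CIZ1, at -0.24 (SE 0.20), and RAB3GAP1 overlaps ZRANB3, at 0.45 (SE 0.24) per the authors' deposited table, and none of these partners passed. RAB3D, at 296 mean normalised counts, overlaps TMEM205 on the same strand, at -0.15 (SE 0.15) and 816 mean normalised counts. It also overlaps CCDC159 on the opposite strand, at 0.0020 (SE 0.20), and neither partner passed. The effect of these overlaps on the counts was not tested. RAB3C, BIN1, SNAP25, NAPB and SYNJ1 overlap no other annotated exon.

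The wider presynaptic set, 122 further genes of the same roles with their partners and the exocyst, was also divided. Of 89 measured genes 16 rose and 22 fell by DESeq2 (42.7%, against 34.0% of all genes), with a median of -0.017 per the authors' deposited table. RIMS3, a short RIM without the Rab3-binding part, fell by 1.16 (SE 0.14; DESeq2 adjusted p = 9.02e-14) per the authors' deposited table, a larger change than that of any measured active zone member. Of the 14 measured other active zone genes 3 rose and 1 fell (28.6%). The rise with the smallest adjusted p was that of LIN7C, a scaffold protein, at 0.89 (SE 0.19) per the authors' deposited table. PPFIBP2, a liprin-beta, was higher at 0.96 (SE 0.24) there. SLC18A3, the vesicular acetylcholine transporter, fell by 0.93 (SE 0.17) and the secretory carrier membrane protein SCAMP1 rose by 0.61 (SE 0.17) per the authors' deposited table. With the trend removed, SLC18A3 still passed at -0.50 (adjusted p = 0.0219 from the DESeq2 values), while SCAMP1 at 0.30 (adjusted p = 0.189) did not. They are among 8 other vesicle proteins with 2 higher and 2 lower (50.0%).

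Of 15 other SNARE genes 0 rose and 3 fell by DESeq2 (20.0%, against 34.0% of all genes), per the authors' deposited table. At an unadjusted p under 0.05 by DESeq2, 2 were higher and 3 lower. That is 5 of 15, against 5990 of 13865 genes counted once per symbol. SNAP23, the broadly expressed relative of SNAP25, fell by 0.94 (SE 0.15; DESeq2 adjusted p = 2.60e-08) and the syntaxin STX3 by 0.74 (SE 0.20) per the authors' deposited table. The interval of SNAP23, -1.24 to -0.64, lay below that of SNAP25, 0.24 to 0.80, per the authors' deposited table. Among 8 other synaptotagmin-like genes 3 rose and 2 fell (62.5%). SYT14 was at 0.82 (SE 0.16) and ESYT1, a tether between endoplasmic reticulum and plasma membrane, at -0.97 (SE 0.14) per the authors' deposited table. Among 7 other Rab3 and Rab27 genes 1 passed (14.3%), the exchange factor RAB3IL1, at -0.97 (SE 0.22) per the authors' deposited table. Of these genes 0 rose. At an unadjusted p under 0.05 by DESeq2, 2 were higher and 2 lower, or 4 of 7, against the same 5990 of 13865 genes.

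Neurexin partners, other endocytic genes and the exocyst complete the set. Of 8 measured genes in the list of neurexin partners 1 rose and 3 fell by DESeq2 (50.0%, against 34.0% of all genes). Per the authors' deposited table LRRTM2, a postsynaptic ligand of neurexins, was at 1.21 (SE 0.25) and the secreted ligand CBLN2 at -1.28 (SE 0.27). LRRTM2 and CBLN2 had 46.6 and 22.7 mean normalised counts there. Of 20 other endocytic genes 3 rose and 8 fell (55.0%). The scaffold ITSN1 was at 0.67 (SE 0.16) and PACSIN2, a membrane-bending protein, at -0.74 (SE 0.14) per the authors' deposited table. With the trend removed, 3 of these 20 passed as higher and 2 as lower, against 12.3% and 12.9% of all genes. Of 9 exocyst subunits, which tether secretory vesicles, 4 rose and 2 fell (66.7%), and with the trend removed 2 passed as higher and 1 as lower. EXOC6B was at 0.99 (SE 0.17) and EXOC7 at -0.57 (SE 0.13) per the authors' deposited table.

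**Figure D5:**
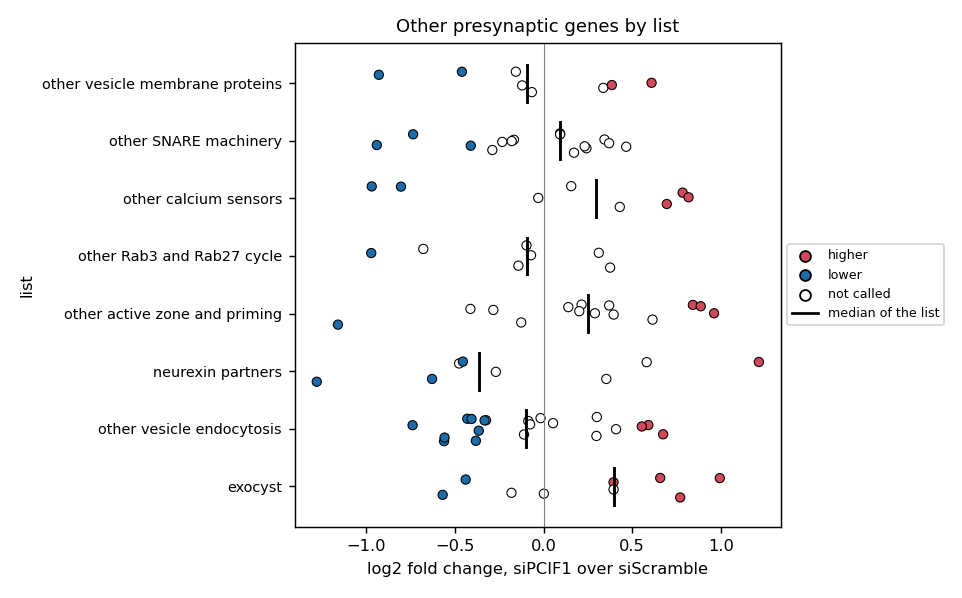
Log2 fold change, siPCIF1 over siScramble (horizontal axis), of 89 other measured presynaptic genes in 8 lists; red points were called higher, blue lower, white not called, and the black line is the median of the list. Called genes stand on both sides of 0 in 6 of the 8 lists.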

How the data were processed

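Poly(A)-selected, stranded libraries of 6 samples were made, per the labels' protocols. Tools named, per the submitters' processing notes and without roles or settings, are DESeq2, HTSeq, STAR 2.7.10a, deepTools, cutadapt 3.7 and bcl2fastq 2.20, with hg38 as the build. One table of the authors' comparison was used. Its mean normalised count, a signal over all samples, was deposited by the authors, as were the log2 fold change and its SE (log2 values), the Wald statistic (a score) and the p-value with its adjusted p-value, per the file headers. Depth per library is unknown, and the SEs ran from 0.119 to 0.295.

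The adjusted p-values equalled a Benjamini-Hochberg adjustment over all 13885 genes. The relation of SE to Wald statistic is that of fold changes shrunken under a normal prior, which the header does not state. Identifiers were matched without version to GENCODE 29 on GRCh38 (13877 matched). The main transcript was chosen by APPRIS rank, basic tag, support level and length, and RefSeq starts by symbol. The trend was a linear fit over 13877 genes on 4 properties, which took 17.3% of the variance. Named genes were PCIF1, every member with an adjusted p under 0.05, canonical and extreme members of each role, and up to 2 called genes of each other list; overlapping partners, markers, UNC13B, SYT4, PPFIBP2 and other members that did not pass were named after their values were seen. The members and lists were chosen with earlier results of these data known. Steps were tested on simulated data. Python 3.11.15, numpy 2.4.6, pandas 2.3.3, scipy 1.17.1 and matplotlib 3.10.9 were used.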

Additional observations from a re-analysis of the deposited data

How the results depend on the processing

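All 23 member calls held when the fold changes were centred on the median of all genes and at an adjusted p under 0.1, and 22 of the 22 with a mean normalised count of at least 100 held under that filter. The 11 higher and 12 lower members became 8 and 5 at an adjusted p under 0.01, 10 and 5 with the trend removed, 3 and 1 (RAB27B, RAB3A, RAB3C and BIN1) where the DESeq2 estimates were tested for a log2 change beyond 0.3, and 0 and 0 with the Wald statistic scaled to its robust SD of 2.44, where 3 and 1 had an unadjusted p under 0.05. The corresponding counts over all genes were 2263 higher and 2453 lower in the authors' deposited table, 1489 and 1685, 1713 and 1792, 537 and 723, and 21 and 114. PCIF1 missed the threshold in the last of these, with adjusted p = 0.744 by the scaled DESeq2 statistic, and against 0.3, with 0.0658. At an unadjusted p under 0.05 by the scaled statistic, 425 of all genes were higher and 649 lower. The 16 higher and 22 lower other presynaptic genes were 11 and 12 at 0.01, 15 and 13 with the trend removed, 4 and 7 against 0.3, and 0 and 0 when scaled. The cause of these losses was not tested beyond the construction of each step. The member median stayed between -0.047 and 0.081. With shrinkage undone by calculation, RAB27B was at 1.56, RAB3A at 1.05 and BIN1 at -0.78. These values assume a normal prior with an SD of 0.59, set from the largest SE of the table, and that assumption was not tested. No paired analysis was possible because the table holds the comparison and no values per sample, and for the same reason no replicate could be left out.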
